A study of Drosophila melanogaster with 12 samples.

Results

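The steroid hormone ecdysone times the moults and metamorphosis of Drosophila. It binds a heterodimer of the nuclear receptors EcR and Ultraspiracle, which switches on a small set of early transcription factors, and these in turn control early-late and late genes that differ from tissue to tissue. In imaginal discs of the late larva the hormone induces the Imp genes, which encode secreted and membrane proteins, before the disc everts to form the adult appendage. Larvae with damaged discs delay pupariation, and the relaxin-like peptide Ilp8, released by the damaged disc, is one signal for that delay.

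The 10 genes described here are EcR, br, Eip74EF, Eip75B, Hr4, ftz-f1, Blimp-1, ImpE2, ImpE3 and Fbp1, out of 17753 genes in the table of counts. They were chosen by name as the ecdysone receptor and its early, early-late and Imp targets, with their levels and fold changes after irradiation in these same libraries already known. Those fold changes are therefore given as a description. No test is given for them in any comparison. All 10 were among the 10617 genes that passed the filter on low counts. Tests are given for lists of 88 other genes of the same hormone system, of which 66 passed that filter. The lists were also written with results of these libraries known, so their p-values are not independent evidence.

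RNA was sequenced from cells sorted out of larval wing discs, with 2 libraries in each of 6 groups and 12 in all. The larvae were w1118/+ or Y; 30A-GAL4>UAS-G-trace/+, from a cross of 30A-GAL4>UAS-G-trace/SM5 with w1118, and every group carried these alleles. 30A-GAL4 is an insertion in an intron of dachsous that is active in the hinge, the band of disc between the wing pouch and the notum. G-trace marks cells with current driver activity in red (RFP) and cells with past activity in green (GFP). POS cells were RFP+GFP+ and are hinge cells. NEG cells were RFP-GFP- and hold the remaining cells, which include pouch, notum and adult muscle precursors. Cells were sorted 24 h after X-rays (POS IR+24h and NEG IR+24h), 48 h after X-rays (POS IR+48h and NEG IR+48h), or 24 h after mock irradiation (POS -IR and NEG -IR). The larvae were staged from the end of egg collection, with an age range of the collection itself, and those of IR+48h included larvae irradiated a day younger than the rest. No -IR cells were sorted at 48 h, and the mix of ages in each IR+48h library is not given. At IR+48h irradiation and up to a further day of age therefore cannot be told apart. Each library pooled discs from several crosses and sorts.

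Total counts per library were between 4211088 in NEG -IR replicate 1 and 19940040 in POS IR+48h replicate 1. The 2 libraries of each -IR group differed most from each other. Over all 10617 genes the median absolute log2 difference between replicates was 0.49 in POS -IR and 0.50 in NEG -IR, and between 0.19 and 0.27 in the irradiated groups. The 4 hinge markers (zfh2, Sox15, upd1 and ds) summed to 3648 to 6915 CPM (counts divided by library size and scaled to a common total) in POS libraries and to 850.5 to 1143 CPM in NEG libraries. Markers of adult muscle precursors (twi, Him, zfh1 and htl) summed to 12 and 32.2 CPM in POS -IR, 77.4 and 70.3 CPM in POS IR+24h and 141 and 155 CPM in POS IR+48h, and to between 383 and 1308 CPM in NEG libraries. All 4 were above 0 in every library. The 6 hemocyte markers (Hml, NimC1, Pxn, srp, eater and He) summed to 62.9 and 143 CPM in NEG -IR. They summed to 247 and 76.9 CPM in NEG IR+24h and to 288 and 293 CPM in NEG IR+48h. In POS libraries their sum was between 5.715 and 14.8 CPM. The 2 tracheal markers (trh and btl) summed to between 72.7 and 127 CPM in NEG libraries and between 24.4 and 57.6 CPM in POS libraries. The part of these other cells in the results below was not tested. All values are of bulk RNA, in which fewer cells of a type and less RNA per cell cannot be told apart.

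Among the 10 genes, 4 were far lower 24 h after irradiation in hinge cells, namely Hr4, Blimp-1, ImpE2 and ImpE3, and ftz-f1 was higher. EcR stayed near its -IR level, and br, Eip74EF and Eip75B were moderately lower. In NEG cells the same 4 genes were low and ftz-f1 was high. The fitted decreases of the 4 were smaller there, by an amount that depended on which -IR library was left out. At IR+24h the log2 fold change in POS cells less that in NEG cells was -1.12 for Hr4, -1.56 for Blimp-1, -2.08 for ImpE2 and -0.35 for ImpE3, and without POS -IR replicate 2 it was -0.0575 for Hr4, -0.15 for Blimp-1, -0.97 for ImpE2 and 0.47 for ImpE3. Of the 10 genes 9 had a lower log2 change in POS than in NEG cells at IR+24h, 4 without that library and 10 without NEG -IR replicate 2. Most of the 10 were high in replicate 2 of both -IR groups, so that leaving out only 1 of these libraries shifts the difference. Over all tested genes the median difference was -0.01, and 0.02 and -0.11 in those fits, in that order. At 48 h the group means of the 4 low genes stood between their IR+24h and -IR means, but not every library did. For Hr4 replicate 2 stayed near the IR+24h level in both populations. The plot of CPM by library shows these patterns gene by gene.

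**Figure D1:**
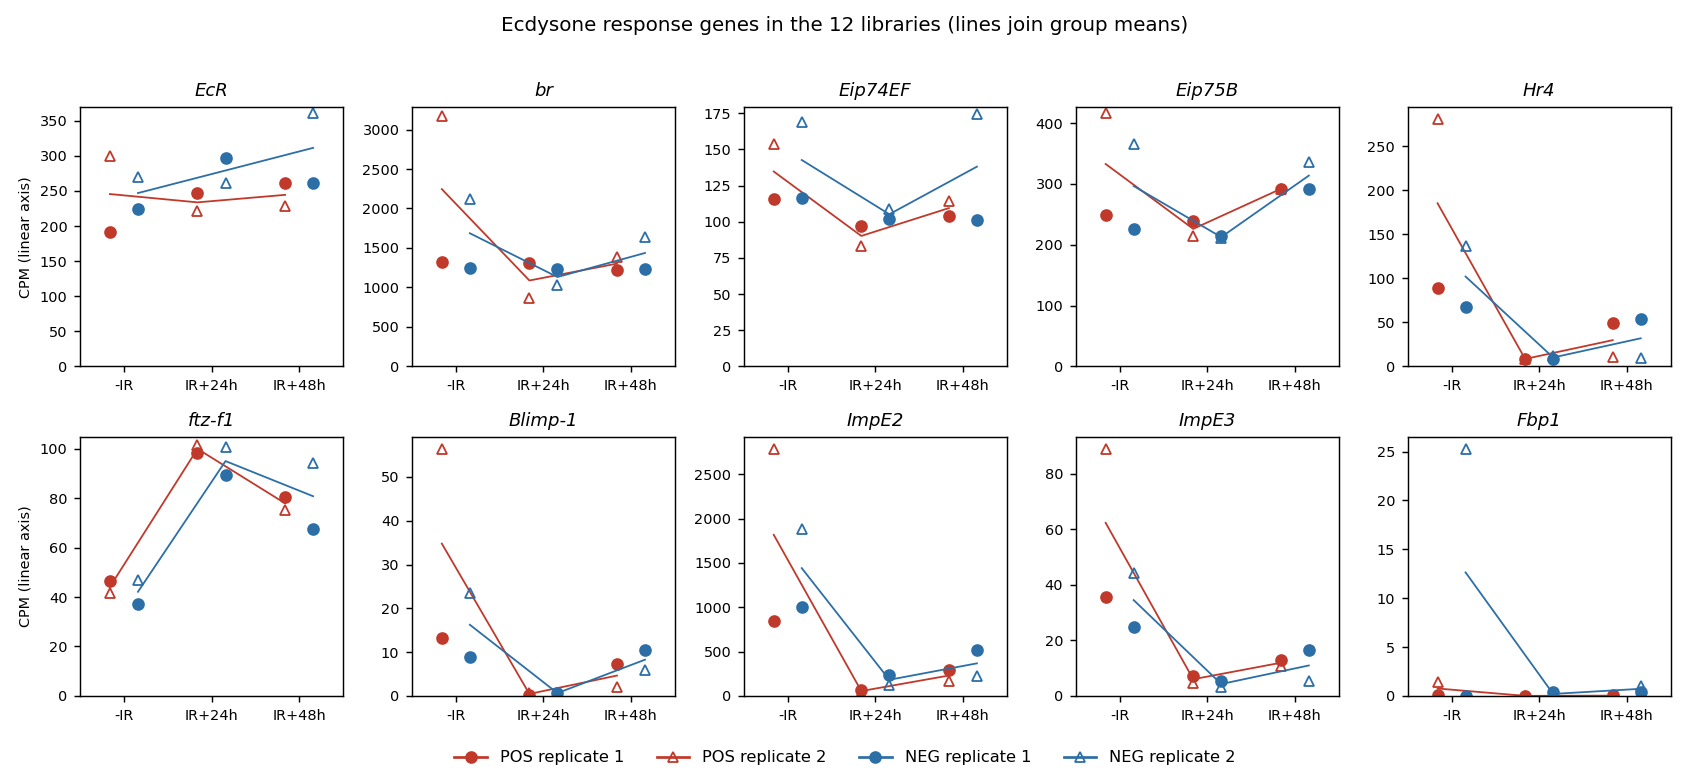
CPM on linear axes that start at 0 (vertical) for each of the 10 genes in the 12 libraries, by time after irradiation (horizontal), with POS in red and NEG in blue. Filled circles are replicate 1, open triangles are replicate 2 and lines join group means. Hr4 lies between 8.18 and 11.5 CPM in all 4 IR+24h libraries and between 67.2 and 281 CPM in the 4 -IR libraries, while ftz-f1 is higher in all 4 IR+24h libraries (89.3 to 102 CPM) than in the -IR libraries (37.3 to 47.0 CPM).

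The receptor gene itself differed little between groups. EcR (FBgn0000546, 2R:6087873-6169087, minus strand, BDGP6) had 192 and 299 CPM in POS -IR, 247 and 221 CPM in POS IR+24h, and 261 and 228 CPM in POS IR+48h. In NEG cells it had 224 and 270 CPM without irradiation, 297 and 262 CPM at IR+24h, and 262 and 361 CPM at IR+48h. The groups overlapped at every time in both populations. Its log2 fold change at IR+24h was -0.07 ± 0.22 (SE, n = 2 libraries a group) in POS cells and 0.18 ± 0.22 in NEG cells, which is within its spread between replicates. Counts were made per gene, so the receptor's isoforms, which have different roles in discs, were not separated. Its partner usp, which encodes Ultraspiracle, had 46.0 and 40.9 CPM in POS IR+24h against 50.4 and 56.7 CPM in POS -IR and was not called changed there (log2 fold change -0.30 ± 0.18, adjusted p = 0.414 by the edgeR quasi-likelihood test with Benjamini-Hochberg adjustment over all tested genes), nor in NEG cells (-0.22 ± 0.18, adjusted p = 0.666).

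The 3 classical early genes were the next least affected. br (FBgn0283451, X:1575132-1664869, plus strand), which encodes the BTB zinc finger proteins of the Broad-Complex that accompany entry into metamorphosis, had 1314 and 861 CPM in POS IR+24h, against 1320 and 3170 CPM in POS -IR. In NEG cells it had 1231 and 1032 CPM at IR+24h against 1250 and 2122 CPM without irradiation. Each IR+24h library was below the lower -IR library of its population, and most of the distance came from the high replicate 2 of each -IR group. The log2 fold change was -1.05 ± 0.37 in POS cells and -0.58 ± 0.36 in NEG cells.

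Eip74EF (FBgn0000567, 3L:17558672-17619325, minus strand) encodes ETS-domain proteins. It had 97.2 and 83.1 CPM in POS IR+24h against 116 and 154 CPM in POS -IR, and 102 and 109 CPM in NEG IR+24h against 117 and 169 CPM in NEG -IR. Eip75B (FBgn0000568, 3L:17950953-18064696, minus strand) encodes a heme-binding nuclear receptor. It had 238 and 214 CPM in POS IR+24h against 249 and 416 CPM in POS -IR, and 214 and 211 CPM in NEG IR+24h against 227 and 366 CPM in NEG -IR. For both genes no IR+24h library reached the lower -IR library of its population, but the gap was small beside the difference between the -IR replicates. The log2 fold changes in POS cells were -0.58 ± 0.26 for Eip74EF and -0.56 ± 0.25 for Eip75B. At IR+48h Eip74EF had 104 and 114.6 CPM in POS cells, both still below the lower -IR library, and 101 and 175 CPM in NEG cells, which overlapped with -IR. Eip75B overlapped with -IR in both populations, at 292 and 292 CPM (POS) and 291 and 336 CPM (NEG). br had 1216 and 1387 CPM in POS IR+48h and 1238 and 1634 CPM in NEG IR+48h.

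Hr4 (FBgn0264562, X:1941940-2007956, plus strand), a nuclear receptor of the early-late class, was lower by more than an order of magnitude at IR+24h. It had 8.51 and 8.18 CPM in POS IR+24h against 89.5 and 281 CPM in POS -IR, and 8.56 and 11.5 CPM in NEG IR+24h against 67.2 and 137 CPM in NEG -IR. The 4 irradiated libraries lay close together and far under the lowest -IR library. The POS IR+24h mean was 4.51% of the POS -IR mean, and the NEG IR+24h mean was 9.82% of the NEG -IR mean. The log2 fold change was -4.47 ± 0.89 in POS cells and -3.35 ± 0.85 in NEG cells. At IR+48h the replicates parted, with 48.8 and 10.6 CPM in POS cells and 53.7 and 9.94 CPM in NEG cells. Replicate 1 lay between the IR+24h and the -IR libraries in both populations. Replicate 2 lay a little above both IR+24h libraries in POS cells and between the IR+24h libraries in NEG cells.

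Blimp-1 (FBgn0035625, 3L:5630983-5652094, plus strand) encodes an ecdysone-inducible zinc finger repressor, for which ftz-f1 is a known target in prepupae. It had 0.296 and 0.585 CPM in POS IR+24h, which were 4 and 9 counts, against 13.1 and 56.4 CPM, or 161 and 910 counts, in POS -IR. In NEG cells it had 0.640 and 0.622 CPM at IR+24h against 8.95 and 23.5 CPM without irradiation. These IR+24h values are close to the limit of 3 counts, between 0.195 and 0.240 CPM in those libraries, so that the size of the decrease is known less well than its direction. The IR+24h means were 1.27% of -IR in POS cells and 3.89% in NEG cells. The log2 fold change was -6.26 ± 0.94 in POS cells and -4.70 ± 0.89 in NEG cells. At IR+48h it had 7.24 and 2.04 CPM in POS cells and 10.6 and 5.95 CPM in NEG cells, all above every IR+24h library of its population.

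ftz-f1 (FBgn0001078, 3L:18750607-18801309, minus strand), a nuclear receptor that makes tissues competent for the prepupal ecdysone pulse and that is known to be expressed when the hormone is low, was the one gene of the 10 that was higher in every IR+24h library than in every -IR library of its population. It had 98.2 and 102 CPM in POS IR+24h against 46.4 and 41.8 CPM in POS -IR, and 89.3 and 101 CPM in NEG IR+24h against 37.3 and 47.0 CPM in NEG -IR. Replicates differed by at most 1.26-fold in these groups, and the groups did not overlap. The log2 fold change was 1.18 ± 0.19 in POS cells and 1.16 ± 0.20 in NEG cells. Levels at IR+48h were 80.5 and 75.4 CPM in POS cells and 67.3 and 94.2 CPM in NEG cells, still above every -IR library, with log2 fold changes of 0.82 ± 0.19 (POS) and 0.93 ± 0.20 (NEG). In the annotation 29.4% of its exon bases are shared with a long noncoding RNA gene on the same strand, which itself held 0 to 11 counts per library.

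The Imp genes, ecdysone-inducible genes first found in imaginal discs, were low at IR+24h together with Hr4 and Blimp-1. ImpE2 (FBgn0001254, 3L:3510974-3512681, minus strand), which encodes a secreted disc protein, was the most abundant of the 10 per length without irradiation, at 1064 CPM per kb of exon in POS -IR and 844 CPM per kb in NEG -IR, where br followed with 111 CPM per kb in POS -IR and 83.5 CPM per kb in NEG -IR. On the plain CPM scale ImpE2 had 71.3 and 37.0 CPM in POS IR+24h against 846 and 2788 CPM in POS -IR, and 235 and 128 CPM in NEG IR+24h against 1001 and 1881 CPM in NEG -IR. Every IR+24h library was far under the lowest -IR library of its population, and the POS IR+24h libraries were lower than the NEG IR+24h libraries. The log2 fold change was -5.07 ± 0.68 in POS cells and -2.99 ± 0.62 in NEG cells. At IR+48h ImpE2 had 294 and 165 CPM in POS cells, a log2 fold change of -2.99 ± 0.62 over POS -IR, and 514 and 220 CPM in NEG cells (-1.97 ± 0.59).

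ImpE3 (FBgn0001255, 3R:8028453-8029546, minus strand) had 7.25 and 4.74 CPM in POS IR+24h against 35.6 and 89.2 CPM in POS -IR, and 5.28 and 3.25 CPM in NEG IR+24h against 24.7 and 44.4 CPM in NEG -IR. The groups did not overlap, and the log2 fold change was -3.38 ± 0.58 in POS cells and -3.03 ± 0.58 in NEG cells. At IR+48h ImpE3 had 13.02 and 10.8 CPM in POS cells and 16.4 and 5.48 CPM in NEG cells, all below the -IR libraries.

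Fbp1 (FBgn0000639, 3L:14094589-14098053, minus strand) encodes a fat body receptor for storage proteins and is a late ecdysone target of that organ. It was at the limit of detection in the disc. NEG -IR replicate 2 held 348 counts, the other -IR libraries held 0, 1 and 23, and the irradiated libraries held 0 to 15. It is listed at 0 in both POS IR+24h libraries. No fold change is given, because a single library carries nearly all of its counts. The 6 fat body markers summed to 39.5 CPM in that library and to between 8.35 and 43.2 CPM in the others, and their part in its count was not tested.

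**Figure D2:**
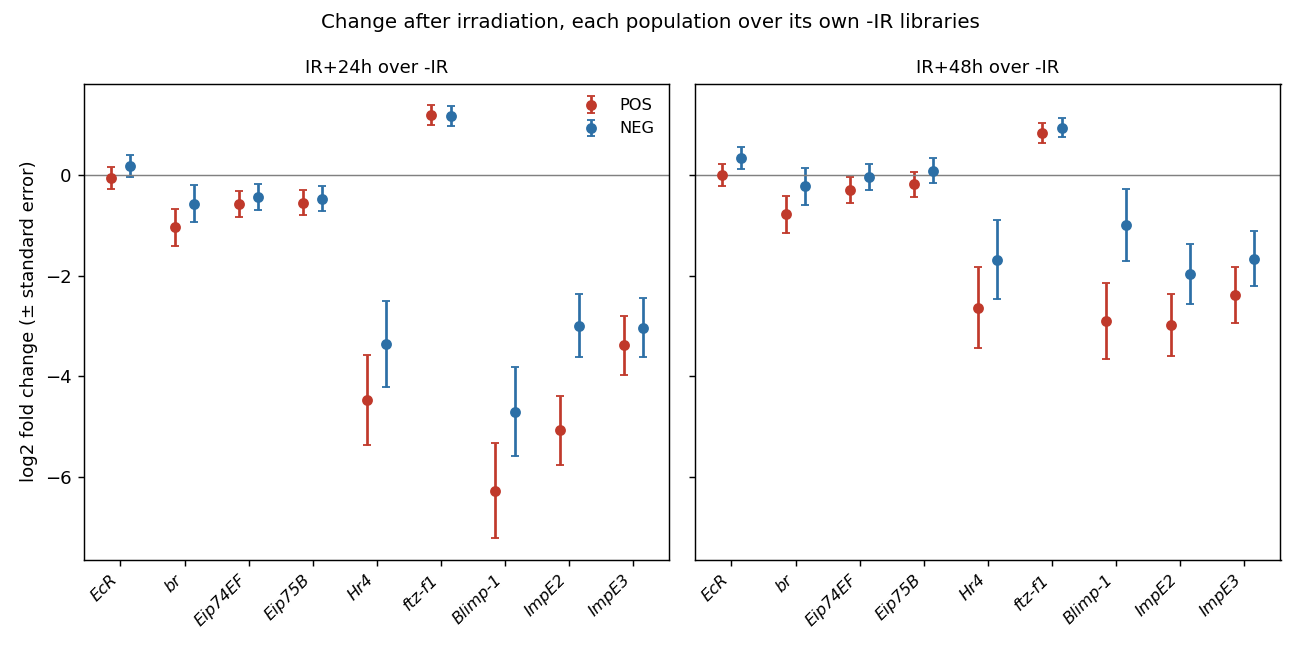
Log2 fold change ± standard error (vertical) over the -IR libraries of the same population at IR+24h (left) and IR+48h (right) for 9 of the genes, with POS in red and NEG in blue. Fbp1 is left out for want of counts. At IR+24h the values run from -6.26 for Blimp-1 to 1.18 for ftz-f1 in POS cells, and at IR+48h the 4 lowest genes lie closer to 0 than at IR+24h in both populations.

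In counts, 8 of the 10 genes in POS cells and 7 in NEG cells were lower in both IR+24h libraries than in either -IR library, where 21.6% (POS) and 17.7% (NEG) of all genes were. In each population 1 gene, ftz-f1, was higher in both, where 23.6% (POS) and 21.6% (NEG) of all genes were. At IR+48h 6 in POS cells and 3 in NEG cells were lower than in either -IR library, where 20.1% (POS) and 16.3% (NEG) of all genes were, and ftz-f1 was again the 1 that was higher, where 21.9% (POS) and 18.9% (NEG) of all genes were. These counts were fixed in part by the choice of the genes, and those of POS cells include Fbp1. The median log2 fold change of the 10 genes at IR+24h was -2.21 in POS cells, beside -0.04 over all tested genes, and -1.78 in NEG cells, beside -0.01. Without Fbp1 it was -1.05 in POS cells and -0.58 in NEG cells, and with Fbp1 set at its limit of detection it was -1.45 in POS cells.

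For the 4 low genes and ftz-f1 the return between 24 and 48 h was smaller than the first change. In POS IR+48h over POS IR+24h the log2 fold change was 3.37 ± 0.90 for Blimp-1, 2.09 ± 0.60 for ImpE2, 1.84 ± 0.82 for Hr4 and 0.995 ± 0.55 for ImpE3. In NEG cells it was 3.70 ± 0.87 for Blimp-1, 1.02 ± 0.58 for ImpE2, 1.67 ± 0.81 for Hr4 and 1.37 ± 0.56 for ImpE3. For ftz-f1 it was -0.36 ± 0.19 in POS cells and -0.23 ± 0.19 in NEG cells. Eip75B in NEG cells returned by 0.56 ± 0.25 after a first change of -0.48 ± 0.25. In POS cells 6 of the 10 were higher in both IR+48h libraries than in either IR+24h library, where 21.7% of all genes were, and 1, ftz-f1, was lower, where 23.3% of all genes were. Those 6 were Eip74EF, Eip75B, Hr4, Blimp-1, ImpE2 and ImpE3. In NEG cells 5 were higher, where 19.3% of all genes were, and 0 were lower, where 22.4% of all genes were. These 5 were br, Eip75B, Blimp-1, ImpE3 and Fbp1, so Hr4 and ImpE2 were not among them. Fbp1 held only 5 and 0 counts in NEG IR+24h and 8 and 15 counts in NEG IR+48h. The POS IR+48h means remained at 16.0% of -IR for Hr4, 13.3% for Blimp-1, 12.6% for ImpE2 and 19.1% for ImpE3. The NEG IR+48h means were at 31.2% of -IR for Hr4, 50.9% for Blimp-1, 25.5% for ImpE2 and 31.7% for ImpE3.

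Much of the error of these values lay between the replicates. In POS -IR 9 of the 10 genes were higher in replicate 2 than in replicate 1, with a median log2 difference of 1.29, and in NEG -IR all 10 were, with a median of 0.80. Over all tested genes these medians were -0.05 in POS -IR and 0.02 in NEG -IR. The 4 genes lowest after irradiation also differed between the -IR replicates, by 4.17-fold for Blimp-1, 3.29-fold for ImpE2, 3.13-fold for Hr4 and 2.49-fold for ImpE3 in POS -IR (on CPM with 0.5 added). At IR+24h the replicates were much closer, with a median absolute log2 difference over the 10 genes of 0.19 in POS cells and 0.22 in NEG cells, about that of all genes. At IR+48h Hr4, Blimp-1, ImpE2 and ImpE3 were all lower in replicate 2 than in replicate 1, in POS and in NEG cells alike, for Hr4 by 4.45-fold in POS cells and by 5.19-fold in NEG cells. Of the 10 genes 9 differed between replicates in the same direction in POS and NEG cells without irradiation, as 67.6% of all genes did, and 6 did so at IR+24h and at IR+48h, as 54.9% of all genes did. The ages of the larvae in each library were not given. The part of age or of uneven pools in the spread between replicates was not tested.

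**Figure D3:**
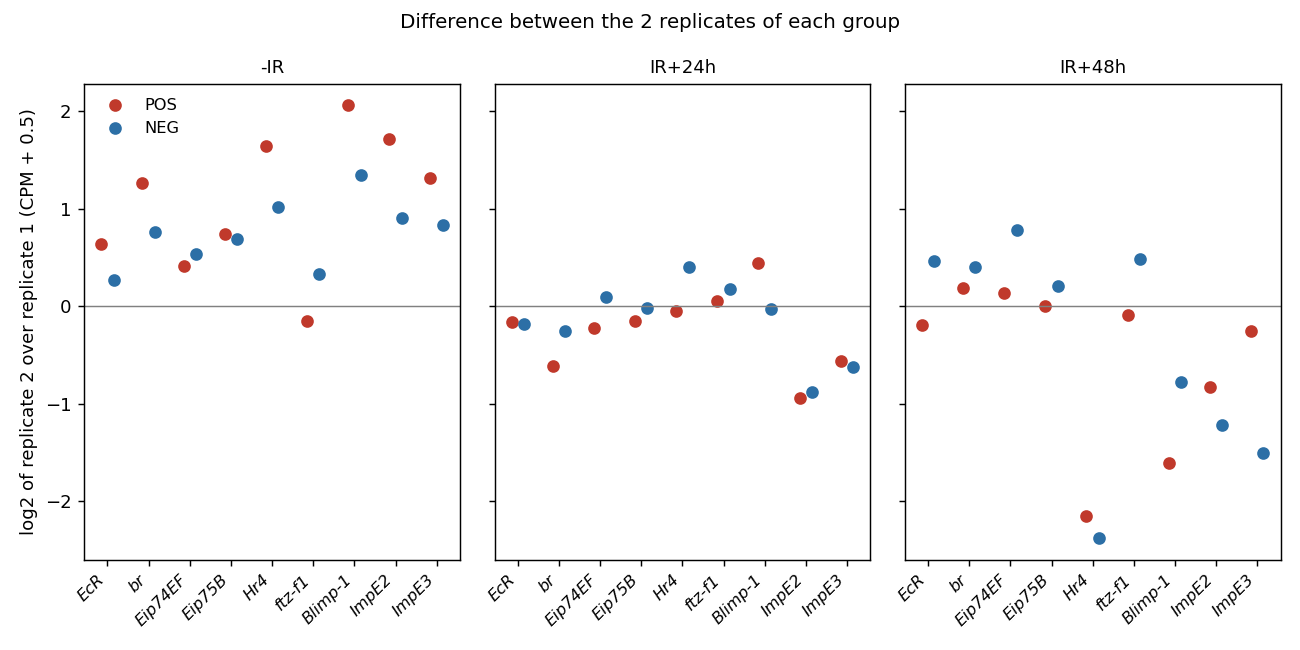
Log2 of replicate 2 over replicate 1 (vertical, on CPM with 0.5 added) for 9 of the genes at each time, with POS in red and NEG in blue; 0 means equal replicates. Without irradiation nearly all points lie above 0, up to 2.06 for Blimp-1 in POS cells, and at IR+48h Hr4 lies at -2.16 in POS cells and -2.38 in NEG cells.

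Across the 12 libraries Hr4, Blimp-1, ImpE2 and ImpE3 varied together, with Pearson correlations of log2 CPM between 0.90 and 0.95 for their 6 pairs, and ftz-f1 ran opposite to them, with correlations between -0.82 and -0.92. br and Eip75B had a correlation of 0.88. EcR had correlations between -0.14 and 0.13 with these 4 genes. These describe 12 libraries that share 3 times, so that they are not 12 independent points. POS and NEG libraries of the same number may also come from the same discs, which the labels do not state. Of all other tested genes the one most like each member was Spn43Aa for Hr4 (0.96), Sec63 for Blimp-1 (0.92), CG15905 for ImpE2 (0.96), Pdi for ImpE3 (0.97), Letm1 for ftz-f1 (0.97), CG10082 for br (0.97), Ptp69D for Eip74EF (0.96), sbb for Eip75B (0.95), CG45263 for EcR (0.92) and mub for Fbp1 (0.97). The value for Fbp1 is limited by NEG -IR replicate 2, which carries nearly all of its counts.

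Between the hinge and the remaining disc the members' levels overlapped without irradiation. There 0 of the 10 were higher and 0 were lower in both POS -IR libraries than in either NEG -IR library, where 17% and 17.1% of all genes were. These counts cross the replicate numbers, while POS and NEG -IR libraries of the same number deviated together. Within the same number br, Eip75B, Hr4, Blimp-1 and ImpE3 were higher in POS cells in both replicates, and Eip74EF was lower in both. EcR, ftz-f1, ImpE2 and Fbp1 changed direction between the replicates. The share of all genes for this was not computed. At IR+24h 0 were higher in both POS libraries, where 21.6% of all genes were, and 5 were lower, where 24.7% of all genes were. Those 5 were EcR, Eip74EF, Hr4, Blimp-1 and ImpE2. ImpE2 had 71.3 and 37.0 CPM in POS IR+24h against 235 and 128 CPM in NEG IR+24h, a log2 difference of -1.75 ± 0.60. The differences of the other 4 were smaller, at -0.26 ± 0.22 for EcR, -0.22 ± 0.26 for Eip74EF, -0.27 ± 0.83 for Hr4 and -0.49 ± 1.03 for Blimp-1. At IR+48h 2 were lower in both POS libraries, EcR and Fbp1, where 20.9% of all genes were, and 0 were higher, where 21.7% of all genes were.

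The other genes of the hormone system are given with their tests. A gene is called where its adjusted p was under 0.05 by the edgeR test. Of the 66 tested, 11 were called in POS IR+24h over POS -IR, 9 higher and 2 lower, which is 16.7% beside 5.33% of all genes (4.14% higher and 1.19% lower). In NEG IR+24h over NEG -IR 6 were called, all higher, which is 9.09% beside 2.16% of all genes (1.89% higher and 0.264% lower). The median log2 fold change of the 66 was -0.11 in POS cells, beside -0.04 over all tested genes, and -0.03 in NEG cells, beside -0.01. Calls rested on single libraries. Without POS IR+24h replicate 2 only Ilp8, JhI-26, upd3 and chinmo were called in POS cells, and without NEG IR+24h replicate 2 only Ilp8 and JhI-26 were called in NEG cells. The POS calls of DOR and ImpL2 were also lost without POS -IR replicate 2, that of DOR without POS IR+24h replicate 1 or either POS IR+48h library, and that of ImpL2 without any other IR+24h library or either NEG IR+48h library. In NEG cells the calls of DOR and chinmo were also lost without NEG -IR replicate 2, and that of Ldh without NEG IR+24h replicate 1.

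Of 5 tested genes of the signals that delay pupariation, 2 were called at IR+24h in both populations, Ilp8 and upd3, and both rose. Ilp8 had 177 and 322 CPM in POS IR+24h against 5.71 and 2.98 CPM in POS -IR, and 47.4 and 74.3 CPM in NEG IR+24h against 4.595 and 1.67 CPM in NEG -IR. It rose in both (log2 fold change 5.86 ± 0.51, adjusted p = 1.44e-04 in POS cells; 4.53 ± 0.54, adjusted p = 0.00149 in NEG cells). upd3, a ligand of the JAK/STAT pathway that also acts on the timing of pupariation, had 25.4 and 39.3 CPM in POS IR+24h against 4.49 and 2.29 CPM in POS -IR and rose in both populations (3.26 ± 0.47, adjusted p = 0.00223 in POS cells; 3.05 ± 0.50, adjusted p = 0.00774 in NEG cells). At IR+48h Ilp8 still stood at 202 and 109 CPM in POS cells and 33.3 and 30.6 CPM in NEG cells, and remained called in both (adjusted p = 6.59e-04 in POS cells and 0.0239 in NEG cells). upd3 was called in POS cells (17.7 and 11.98 CPM, adjusted p = 0.0407) and not in NEG cells (4.43 and 8.99 CPM, adjusted p = 0.309). Ilp8 was higher in POS than in NEG cells in every pair of libraries at IR+24h (log2 difference 2.03 ± 0.42), which did not pass unpaired (adjusted p = 0.0657) and passed with limma voom (0.396% of all genes called), DESeq2 (1.69%) and with POS and NEG libraries of the same time and number taken as pairs (3.68%).

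Of the other Imp and disc eversion genes, 8 were tested and 4 were called in POS IR+24h over POS -IR. ImpE1, the third ImpE gene, which encodes a membrane protein with LDL receptor repeats, had 188 and 174 CPM in POS IR+24h against 341 and 1000 CPM in POS -IR and fell (log2 fold change -1.89 ± 0.42, adjusted p = 0.0229). In NEG cells it had 96.8 and 116 CPM against 222 and 402 CPM and did not pass (-1.56 ± 0.41, adjusted p = 0.0934). Np, which encodes the protease Notopleural, a factor in remodelling of the wing's extracellular matrix, had 51.1 and 35.9 CPM in POS IR+24h against 94.3 and 184 CPM in POS -IR and fell too (adjusted p = 0.0132). Neither decrease passed without POS -IR replicate 2 or without POS IR+24h replicate 2, and ImpE1 was not called without POS IR+24h replicate 1 either.

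The 2 called genes of that list that rose do not encode eversion proteins. Ldh, which encodes lactate dehydrogenase and was once named ImpL3, had 124 and 138 CPM in POS IR+24h against 6.94 and 20.7 CPM in POS -IR (adjusted p = 0.0128) and 56.3 and 80.3 CPM in NEG IR+24h against 0.967 and 11.1 CPM in NEG -IR (adjusted p = 0.0240). ImpL2, which encodes a secreted insulin-binding protein, had 442 and 513 CPM in POS IR+24h against 257 and 202 CPM in POS -IR, at the edge of the threshold (log2 fold change 1.06, adjusted p = 0.0495), and did not pass in NEG cells (0.90, adjusted p = 0.155). In the annotation 61.9% of ImpL2 exon bases are shared with another gene on the same strand.

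Of 12 tested genes of larval identity and juvenile hormone response, 3 were called in POS cells and 2 in NEG cells at IR+24h, and all of these rose. chinmo, a BTB zinc finger gene that is known to hold cells in a larval state and to oppose br, had 644 and 691 CPM in POS IR+24h against 215 and 165 CPM in POS -IR (log2 fold change 1.82, adjusted p = 0.00175), and 507 and 726 CPM in NEG IR+24h against 293 and 219 CPM in NEG -IR (1.27, adjusted p = 0.0215). The groups did not overlap in either population. ab, which encodes the BTB zinc finger protein Abrupt, had 542 and 634 CPM in POS IR+24h against 222 and 238 CPM in POS -IR and rose (adjusted p = 0.00524). JhI-26, named for its induction by juvenile hormone, had 27.8 and 35.7 CPM in POS IR+24h against 0.326 and 0.434 CPM in POS -IR, and 28.9 and 34.8 CPM in NEG IR+24h against 0 and 0.436 CPM in NEG -IR, and it was called in both populations at IR+24h and at IR+48h (adjusted p between 6.01e-05 and 8.63e-04). Kr-h1, the main effector of juvenile hormone signalling, was not called (57.1 and 52.7 CPM in POS IR+24h against 51.0 and 55.4 CPM in POS -IR, adjusted p = 0.942). In the annotation 70.5% of JhI-26 exon bases overlap an antisense RNA gene on the opposite strand. Of Kr-h1 exon bases, 78.55% are shared with another gene on the same strand.

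**Figure D4:**
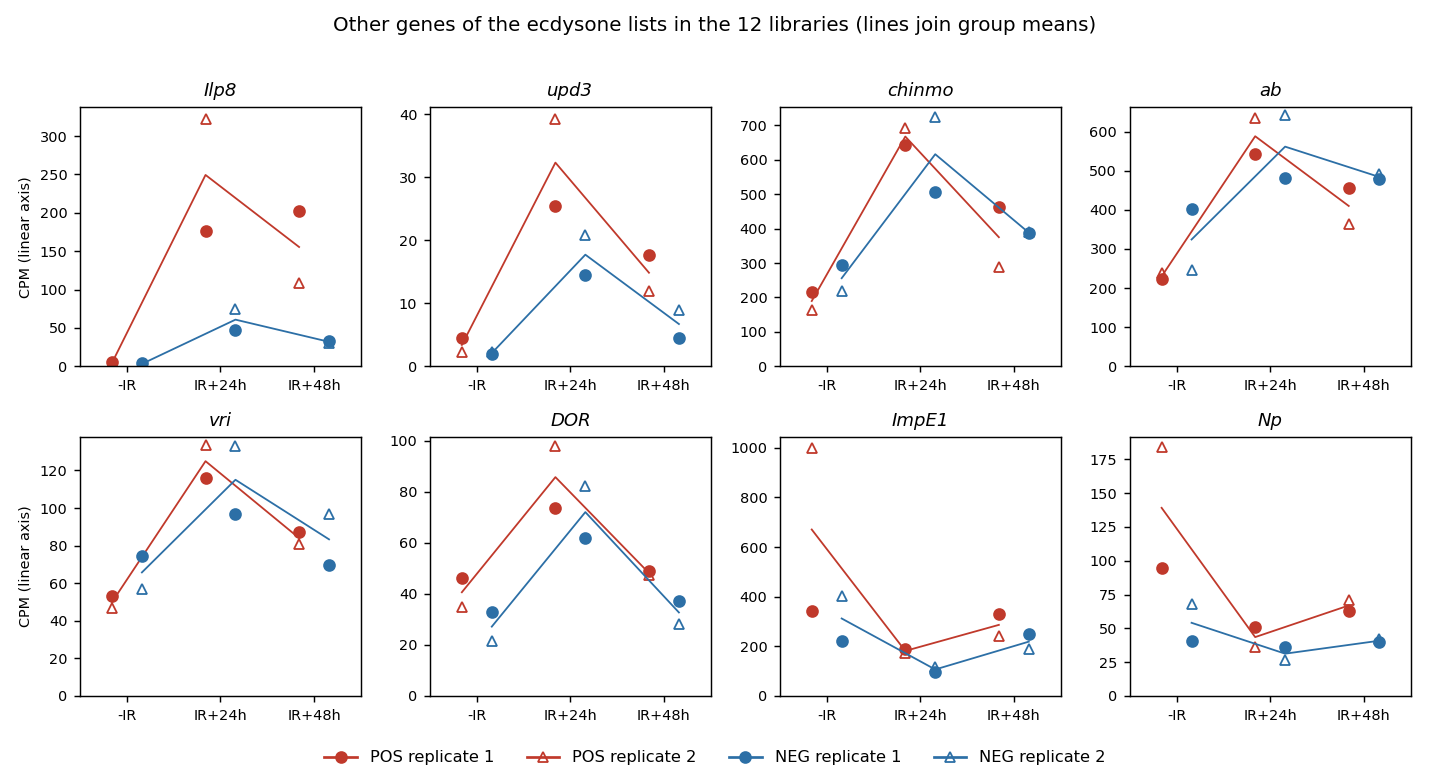
CPM on linear axes that start at 0 (vertical) for 8 other genes of the hormone system in the 12 libraries, by time after irradiation (horizontal), with POS in red, NEG in blue, circles for replicate 1, triangles for replicate 2 and lines through group means. Ilp8, upd3, chinmo, ab, vri and DOR peak at IR+24h in POS cells (chinmo at 644 and 691 CPM against 215 and 165 CPM in -IR), and ImpE1 and Np are lowest there.

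Among the other regulators most did not pass. DOR, which encodes a coactivator of EcR, was the 1 called gene of 7 receptor partners and cofactors, at 73.6 and 97.7 CPM in POS IR+24h against 46.2 and 35.0 CPM in POS -IR (adjusted p = 0.0342) and 61.9 and 82.1 CPM in NEG IR+24h against 32.9 and 21.4 CPM in NEG -IR (adjusted p = 0.0163). vri, an ecdysone-inducible bZIP factor best known from the circadian clock, was the 1 called gene of 12 further early and late puff genes in POS cells, at 116 and 134 CPM in POS IR+24h against 53.0 and 46.8 CPM in POS -IR (adjusted p = 0.00505). Hr3, the nuclear receptor that with Hr4 is known to control ftz-f1, held 10 and 9 counts in POS IR+24h against 8 and 73 counts in POS -IR, and 0 and 6 counts in NEG IR+24h against 4 and 31 counts in NEG -IR, and did not pass (adjusted p = 0.399 in POS cells and 0.347 in NEG cells). Its -IR replicates differed widely, and 82.7% of its exon bases are shared with other genes on its strand. Eip93F, which marks the later pupal programme, had between 1.47 and 9.30 CPM in all libraries and did not pass (adjusted p = 0.994 in POS cells and 0.818 in NEG cells at IR+24h).

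Genes for uptake and turnover of the hormone gave 0 calls of 5 at IR+24h, and none by limma voom or DESeq2. An unadjusted p under 0.05 was reached by 1 in POS cells (18.3% of all genes) and 0 in NEG cells (13% of all genes). Oatp74D, the ecdysone importer, had 192 and 222 CPM in POS IR+24h against 148 and 180 CPM in POS -IR (adjusted p = 0.372). Cyp18a1, which inactivates the hormone, had 13.6 and 19.0 CPM in POS IR+24h against 8.24 and 4.402 CPM in POS -IR (log2 fold change 1.37 ± 0.52, adjusted p = 0.177). shd, which encodes the enzyme that converts ecdysone to its active form in peripheral tissues, held 3 and 10 counts in POS IR+24h against 9 and 62 counts in POS -IR (adjusted p = 0.308). Steroid synthesis genes of the prothoracic gland gave 0 calls of 10 in either population at IR+24h. There 1 in POS cells and 2 in NEG cells had an unadjusted p under 0.05, beside the same 18.3% and 13% of all genes. DESeq2 called phm in NEG cells, beside 4.78% of all genes. Of 20 salivary gland targets 2 were tested and 0 called, with 0 at an unadjusted p under 0.05 at IR+24h in both populations.

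At IR+48h 4 of the 66 genes were called in POS cells (6.06% beside 1.63% of all genes) and 2 in NEG cells (3.03% beside 0.113%). Besides Ilp8, upd3 and JhI-26 these held Lsp1beta, a fat body storage protein gene, which had 5.68 and 4.08 CPM in POS IR+48h against 26.8 and 17.1 CPM in POS -IR (log2 fold change -2.16 ± 0.40, adjusted p = 0.0268). The 6 fat body markers, of which Lsp1beta is one, summed to 9.72 and 8.35 CPM in POS IR+48h against 43.2 and 24.4 CPM in POS -IR, and their part in it was not tested. The call of upd3 in POS cells was lost without either POS IR+48h library, without POS -IR replicate 2 and without any of the 4 IR+24h libraries. The call of Lsp1beta was lost without either POS IR+48h library and without POS -IR replicate 1, and that of Ilp8 in NEG cells without NEG -IR replicate 2 or either NEG IR+48h library. In IR+48h over IR+24h none of the 66 was called by edgeR or limma voom in either population, as 0% of all genes were by edgeR, with 11 in POS cells and 9 in NEG cells at an unadjusted p under 0.05 (4.93% and 6.08% of all genes). DESeq2 called 1 in POS cells and 2 in NEG cells, beside 0.772% and 0.688% of all genes. Between the populations Alk, a receptor tyrosine kinase gene, and Eip55E, which encodes an enzyme of cysteine metabolism, were called lower in POS -IR over NEG -IR, beside 2.67% of all genes called. Alk had 0.653 and 4.53 CPM in POS -IR against 19.6 and 46.0 CPM in NEG -IR (adjusted p = 0.0234), and Eip55E had 37.0 and 32.7 CPM in POS -IR against 68.7 and 90.3 CPM in NEG -IR (adjusted p = 0.0104). Neither passed without NEG -IR replicate 2, and Eip55E did not pass without POS -IR replicate 2. None of the 66 was called between POS and NEG at IR+24h or IR+48h by the unpaired edgeR test, beside 0.509% and 0.33% of all genes, with 8 and 9 at an unadjusted p under 0.05, beside 7.62% and 6.25% of all genes. With the pairing 8 and 6 were called, and 10 without irradiation, beside 3.68%, 2.54% and 11.8% of all genes. No list gene was called for a difference between its POS and its NEG change at either time by edgeR, limma voom or DESeq2, where 0% and 0.0188% of all genes were called by edgeR. At each time 3 list genes had an unadjusted p under 0.05 for it, beside 3.32% (IR+24h) and 3.3% (IR+48h) of all genes.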

How the data were processed

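The authors trimmed the reads from poly-A RNA, aligned and counted them with STAR 2.6.0a against an Ensembl annotation of the BDGP6 genome, and deposited raw counts per gene for each library; the strand of counting is not given in the sources used here. Genes sharing exon bases with a neighbour are therefore uncertain to that extent. The table has 17753 genes. A further 1 column that matches no sample was not analysed here. It holds 0 entries for spike-ins. Positions and exon lengths were taken from the BDGP6.54 annotation of the same assembly.

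Counts were fitted with edgeR 4.0.16 (R 4.3.3): TMM factors, filterByExpr (10617 genes kept), 6 group means over all 12 libraries and two-sided quasi-likelihood F tests, with Benjamini-Hochberg adjustment over all tested genes and a threshold of 0.05. The common biological coefficient of variation was 0.303. CPM (counts per 1e6) used TMM-scaled library sizes, and levels compared between genes are divided by exon length in kb. The precision of a low value is set by depth: 3 counts, taken as the limit of detection, equalled between 0.146 and 0.726 CPM, depending on the library. This covers counting error only.

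The members and lists were chosen with earlier results of these data known, and members are described without tests. The text names all members, 11 preset list genes, list genes past the threshold with 1 direction in all 4 pairs of libraries, and the gene most correlated with each member. A gene named only under another tool was chosen after its values were seen.

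Alternatives were limma voom 3.58.1 (which the study used), DESeq2 1.42.0, library sizes without TMM, other filters, fits to the compared groups alone, the replicate number as a block and each library left out. The study describes its replicates as independent biological ones. Within each time, POS and NEG libraries with the same label number departed from their group means together (correlations 0.522, 0.145 and 0.190 over 10617 genes), so that these were taken as pairs in a block within each time, an alternative chosen after seeing the data. The numbers did not pair different times. In simulated counts for POS IR+24h over POS -IR with 200 of 10113 genes changed 4-fold, 81.5% of the changed genes were recovered by edgeR, with 5.78% false ones among all genes it called. Every simulated gene and group had the common biological coefficient of variation, and changed genes were drawn only from those with higher counts. These shares therefore do not cover changed genes with few counts or the wider spread between the -IR replicates. Figures were drawn with matplotlib 3.10.9.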

Additional observations from a re-analysis of the deposited data

How the results depend on the processing

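Counts of list genes depended on the fit more than directions did. In POS IR+24h over POS -IR, 11 list genes became 17 without a filter and 7 with only the compared groups, and 4 to 14 with a library left out. In NEG IR+24h over NEG -IR, 6 became 11 with DESeq2, 14 without a filter and 2 with the compared groups alone, and 2 to 9 with a library left out. In POS IR+48h over POS -IR, 4 became 10 with DESeq2, 17 without a filter and 0 with the compared groups alone, and 2 to 7 with a library left out. In NEG IR+48h over NEG -IR, 2 became 0 with limma voom, with 1 CPM in all libraries and with the compared groups alone, and 4 without a filter, and 1 to 2 with a library left out. From IR+24h to IR+48h, 0 became 1, 5 and 11 in POS cells and 2, 7 and 3 in NEG cells with DESeq2, no filter and the compared groups alone, and stayed at 0 with any library left out. Between POS and NEG, 2 without irradiation became 5 (DESeq2), 6 (no filter), 1 (1 CPM), 0 (compared groups alone) and 0 to 4 (a library left out). At IR+24h 0 became 1 (limma voom), 4 (DESeq2), 10 (no filter), 8 (compared groups alone) and 0 to 2 (a library left out), and at IR+48h 0 became 1 (limma voom), 4 (DESeq2), 1 (no TMM), 4 (no filter), 4 (compared groups alone) and 0 to 2 (a library left out). For the difference between the POS and NEG changes, 0 became 1 at IR+24h and 2 at IR+48h without a filter. Why these counts moved was not tested, beyond the smaller number of libraries where some were left out.

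The replicate block over all times gave 11, 6, 3 and 2 list genes in the first 4 comparisons and lost upd3 in POS IR+48h (adjusted p = 0.0529). The pairing of POS and NEG within each time, added after seeing the data, gave 10 without irradiation, 8 at IR+24h and 6 at IR+48h between POS and NEG. With the IR+24h numbers crossed against -IR, also added later because same-numbered libraries deviated in opposite directions (correlations -0.275 and -0.182), 12 list genes were called in POS cells and 8 in NEG cells.

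Directions turned for some uncalled list genes. Kr-h1 in POS IR+24h over POS -IR was at -0.00088 (log2) with 1 CPM in all libraries, and ran from -0.0142 to 0.10 with a library left out. With a library left out Hr3, at -1.97 with all libraries, ran from -2.76 to 0.0136 and Eip93F from -0.52 to 0.36 in POS cells, and in NEG cells Eip93F from -0.76 to 0.21, Oatp74D from -0.0849 to 0.21 and Cyp18a1 from -0.44 to 1.15. Depth limits Fbp1, Hr3, shd and Blimp-1 at IR+24h, which held few counts.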
